A study of Arabidopsis thaliana with 31 samples.

Results

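The comparison described here set 5 RNA-seq libraries of the gcn5-7 nrp1-1 nrp2-2 triple mutant of Arabidopsis thaliana against 5 libraries of gcn5-7, chosen by genotype from the 31 libraries of the study. It asks what the loss of NRP1 and NRP2 does to the transcriptome of plants that already carry the gcn5-7 allele, and which of the changes seen in gcn5-7 are then reversed. All plants were whole seedlings, grown on soil after cold stratification (4 °C, 4 days) in long days at 21 °C, harvested 12 days after germination. The 10 libraries belong to experiment B, which also holds 5 libraries of Columbia-0 (Col-0, the wild type) and 5 of the nrp1-1 nrp2-2 double mutant. A separate experiment A holds 2 libraries of Col-0, 3 of gcn5-7, 3 of arp6-1 and 3 of gcn5-7 arp6-1, and was used here only for genes chosen in other libraries and for values set side by side. Both gcn5-7 and the triple mutant carry gcn5-7, so the difference between them is the pair of nrp alleles in that background. Each genotype is a single line, and nothing in the labels tells if replicates came from different cultures. The p-values therefore reflect the spread among these libraries alone, which may be technical.

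GCN5 is the histone acetyltransferase of the SAGA complex and acetylates histone H3 near the starts of active genes. NRP1 and NRP2 are related histone chaperones of the NAP1 family, which bind histones H2A and H2B, including the variant H2A.Z. The variant is put into chromatin by the SWR1 complex, of which ARP6 is a subunit, and chaperones carry it to and from nucleosomes.

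Levels are TMM-scaled TPM, transcript abundances normalized for length and depth and scaled by the authors between libraries, and are given as mean ± SD over 5 libraries unless single values are listed. Changes are log2 differences of value + 1, with standard errors. Genes with a mean of at least 1 (19507) were tested in limma and called where the p adjusted by Benjamini-Hochberg was below 0.05. Of all tested genes, 6.43% had no overlap between the libraries of both genotypes. Read numbers recovered from the values came to 10.5 to 15.7 M reads per library in gcn5-7 and 11.2 to 15.8 M in the triple mutant. The first principal component of experiment B held 49.9% of the variance, and on it triple-mutant replicate 3 lay at 64.3, inside the gcn5-7 range of 35.2 to 88.2, whereas the other 4 triple-mutant libraries lay between -63.9 and 22.7. Replicates of the triple mutant correlated at 0.866 to 0.981 and those of gcn5-7 at 0.919 to 0.974. Chlorophyll-binding and Rubisco transcripts of the labelled green seedlings were abundant, and none of the 16 seed genes or 8 pollen and anther genes found in the table reached a mean of 1. The signal summed over all genes was 704073 to 821849 in gcn5-7 and 812807 to 1234537 in the triple mutant (exact permutation test, 2-sided p = 0.0159), and its part in the results below was examined only by rescaling to equal sums.

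The targeted genes were read first. NRP2 (AT1G18800, chromosome 1, 6481113 to 6483646 in TAIR10.1) stood at 28.1, 27.7, 23.9, 19.3 and 20.3 in gcn5-7 and at a listed value of 0 in each triple-mutant library. NRP1 (AT1G74560, chromosome 1, 28017584 to 28020059) stood at 56.6, 52.3, 49.3, 45.7 and 38.3 in gcn5-7 and at 13, 10.5, 9.7, 11 and 12.5 in the triple mutant. The groups did not overlap for either gene, and NRP1 fell by 2.00 ± 0.18 on the log2 scale (adjusted p = 4.15e-06). CYP98A9 (AT1G74550), a cytochrome P450 gene whose annotated end at 28017711 overlaps that of NRP1, also fell, by 1.95 ± 0.19 (adjusted p = 1.19e-05). How the authors' counting divided reads of overlapping genes is not given in the sources used here. In Col-0, NRP2 had 11.8 ± 2.37 and NRP1 had 27.8 ± 4.68, and both were called higher in gcn5-7 than there (adjusted p = 0.000893 and 0.00538). The 2 mutated genes are therefore counted among the reversed genes below. GCN5 (AT3G54610) did not pass the test, at 4.44 ± 1.34 in gcn5-7 and 3.14 ± 0.645 in the triple mutant (adjusted p = 0.305), and overlapped between groups. Its level in Col-0 was 5.61 ± 1.45, from which gcn5-7 was not shown to differ (adjusted p = 0.33), so the transcript does not check the gcn5-7 label.

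Loss of the NRP chaperones in gcn5-7 changed 627 genes, 3.21% of those tested, with 405 higher and 222 lower in the triple mutant. Most of these changes ran against the change that gcn5-7 itself had made: 504 of the 627 (80.4%) were called in gcn5-7 against Col-0 and called in the opposite direction in the triple mutant against gcn5-7. Of these, 180 had risen in gcn5-7 and fell in the triple mutant, and 324 had fallen and rose. Only 10 genes rose in both steps, 0 fell in both, and 113 were not called in gcn5-7. The gcn5-7 libraries enter both steps, which by itself favours opposite signs, so the count is a description, and the background against which it stands is wide, since 5118 genes (26.2%) were called in gcn5-7 against Col-0. The reversed genes were 7.99% of the 2254 called higher in gcn5-7 and 11.3% of the 2864 called lower.

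The counts of this comparison depended on single libraries and on whether replicate numbers were used as pairs. Same-numbered libraries of both genotypes deviated together, with correlations of 0.12 to 0.54 over the 5 numbers, and with the replicate number as a block 4953 genes were called (13.6% of all genes higher and 11.8% lower), among them all 627, and 4277 were reversed. Counts given below for the block are to be read against these shares, and other list counts against 2.08% higher and 1.14% lower. Without triple-mutant replicates 1 to 5 in turn, 262, 281, 1669, 332 and 182 genes were called. Without gcn5-7 replicates 1, 2, 3 or 5 the count was 210, 354, 245 or 316, and without nrp1-1 nrp2-2 replicate 2, which enters only through the shared spread, it was 1116. Reversed genes numbered 147 to 1429 over these settings, and 803 without gcn5-7 replicate 4. With libraries rescaled to equal sums the median gene moved by -0.25, and the split was 177 higher and 312 lower. The changes of the triple mutant against gcn5-7 also moved with transcript length (Spearman's rho -0.27 between log2 change and exon length over 19390 genes). In gcn5-7 against Col-0 the trend ran the other way, with a rho of 0.3, and in the triple mutant against Col-0 rho was 0.22. A fit with the length trend removed from each library gave 731 reversed genes.

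On levels, the 180 genes reversed downwards lay a median 1.32 above Col-0 in gcn5-7 and 0.08 above it in the triple mutant, on the log2 scale. The 324 reversed upwards lay a median 1.26 below Col-0 in gcn5-7, written as a difference of -1.26, and -0.27 in the triple mutant. Against Col-0, where 2.43% of all genes were called in the triple mutant, 8 of the 180 and 16 of the 324 were still called. The remaining genes did not pass that test, which does not show that they were back at the wild-type level. Choice by opposite calls in both steps itself favours triple-mutant levels near Col-0. Over all 2254 genes called higher in gcn5-7 the triple mutant lay a median 0.41 above Col-0, and over the 2864 called lower at -0.40. For the genes chosen in experiment A, described next, these medians were 0.45 and -0.61.

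Genes chosen in experiment A share no library with this comparison and show the reversal without the common gcn5-7 samples. Of the genes at least 1 log2 unit higher in gcn5-7 than in Col-0 of A at an unadjusted p below 0.05 (6.66% of genes passed this in either direction), 563 were tested in B, and 552 of them (98%) were lower in the triple mutant than in gcn5-7. The median change was -0.86, 68 were called lower (12.1%, against 1.14% of all genes) and 0 higher. Of 561 genes chosen as lower in A, 524 (93.4%) were higher in the triple mutant, with a median of 0.66, 114 called higher (20.3%, against 2.08% of all genes) and 0 lower. With the replicate block the calls were 340 and 326.

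By library, the 563 genes lay at medians of 2.06, 1.08, 1.33, 0.69 and 1.38 above the Col-0 mean in gcn5-7 replicates 1 to 5. In the triple mutant they lay at 0.42, 0.26, 1.31, 0.08 and 0.19. Replicate 3 alone overlapped gcn5-7, and replicate 3 was also the highest of its group in Col-0, at 0.43, and in nrp1-1 nrp2-2, at 0.74. Without triple-mutant replicate 3, 204 of the 563 were called lower and 184 of the 561 higher. For the 561 genes the triple-mutant medians were -0.61, -0.52, -1.06, -0.51 and -0.49, all above the gcn5-7 range of -1.56 to -1.12 and all below the Col-0 range of -0.32 to 0.18.

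**Figure D1:**
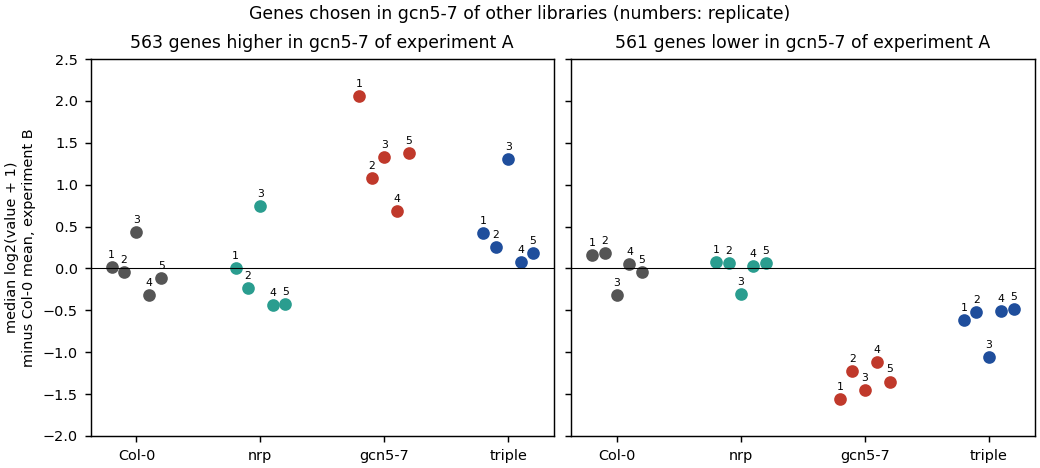
Median log2(value + 1) minus the Col-0 mean (y axis) in each library of experiment B, by genotype (x axis; triple is gcn5-7 nrp1-1 nrp2-2, nrp is nrp1-1 nrp2-2), for genes chosen as higher (563, left) or lower (561, right) in gcn5-7 of experiment A. Each point is a library with its replicate number; on the left 4 triple-mutant libraries lie below all of gcn5-7 and replicate 3, at 1.31, among them, and on the right all 5 lie between gcn5-7 and Col-0.

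Genes of the ER body fell together. The ER body is a store of beta-glucosidases, derived from the endoplasmic reticulum in seedlings and roots of Brassicaceae, that is released on wounding. The 13 genes tested were gathered after their values were seen, so their count carries no test: 10 were called lower, where 1.14% of all genes were, and 0 higher, and their median was -1.57, against 0.00 over all genes tested. In gcn5-7 against Col-0 the median of the same genes was 1.47. The upstream sequences of 3 of them are shown because they fell together, each with the 250 bases before the RefSeq gene start in TAIR10.1, 5′ to 3′ on the gene's strand, with G-boxes (CACGTG), W-box cores (TTGAC or GTCAA) and site II elements (TGGGCC or GGCCCA) in capitals.
NAI2 chr3:5402654-5402903 minus strand: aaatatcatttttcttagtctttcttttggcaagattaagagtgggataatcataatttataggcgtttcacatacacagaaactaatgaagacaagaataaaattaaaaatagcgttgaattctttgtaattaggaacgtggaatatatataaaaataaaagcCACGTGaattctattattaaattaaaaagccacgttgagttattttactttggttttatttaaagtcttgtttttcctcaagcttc
PYK10 chr3:2843782-2844031 minus strand: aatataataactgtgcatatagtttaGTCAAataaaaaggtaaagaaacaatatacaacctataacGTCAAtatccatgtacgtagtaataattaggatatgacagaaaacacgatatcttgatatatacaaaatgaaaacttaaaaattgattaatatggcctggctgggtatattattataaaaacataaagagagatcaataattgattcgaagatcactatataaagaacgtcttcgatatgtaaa
JAL34 chr3:5592241-5592490 plus strand: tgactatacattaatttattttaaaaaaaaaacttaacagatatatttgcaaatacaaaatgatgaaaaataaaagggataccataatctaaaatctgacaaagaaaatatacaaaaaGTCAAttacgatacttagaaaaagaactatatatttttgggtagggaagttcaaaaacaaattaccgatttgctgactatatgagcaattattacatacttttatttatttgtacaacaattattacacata
A G-box lies 86 bases before the start of NAI2, and W-box cores lie 224 and 184 bases before PYK10 and 132 before JAL34. Over both strands, a G-box was present in 7.82% of the 179 downward-reversed promoters read, in 3.73% of 322 upward-reversed ones and in 6.98% of all 19390. A W-box core was present in 50.8%, 42.5% and 44.4%. These are matches of letters and show no binding.

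NAI2, which is needed for ER bodies to form, had 31.9, 21.2, 24, 31.3 and 22.6 in gcn5-7 and 2.76, 0.648, 8.36, 6.71 and 5.52 in the triple mutant. Every triple-mutant library lay below every gcn5-7 library, which a rule that named NAI2 required, and Col-0 spanned 0.932 to 8.53. NAI2 fell by 2.44 ± 0.48 on the log2 scale (adjusted p = 0.0101). JAL34 (AT3G16460), a jacalin-type lectin, had 40.9, 22.6, 21.6, 37.2 and 29.9 in gcn5-7 and 6.34, 5.45, 5.82, 5.76 and 6.61 in the triple mutant. The triple mutant was uniform and lay within the Col-0 range of 4.6 to 7.73, a fall of 2.13 ± 0.23 (adjusted p = 2.8e-05). GLL23 (AT1G54010), a GDSL lipase-like protein found in ER body complexes, fell from 146 ± 56.1 to 40.8 ± 15.9 (log2 change -1.8 ± 0.27, adjusted p = 0.00155), and Col-0 had 22.1 ± 7.17. Its groups did not overlap, which the rule that named it required.

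The other members had smaller or similar falls. PYK10 (AT3G09260), the main ER body beta-glucosidase, fell from 120 ± 51.4 to 44.1 ± 14.2 (-1.41 ± 0.30, adjusted p = 0.0163). JAL30 (AT3G16420), a lectin that binds PYK10, fell from 202 ± 54.8 to 65.1 ± 13.3 (-1.59 ± 0.23, adjusted p = 0.0011). JAL22, another lectin, fell by 1.91 ± 0.28 (adjusted p = 0.0011), and MEB1, an ER body membrane protein, fell by 1.90 ± 0.27 (adjusted p = 0.000737). NAI1, the bHLH factor that drives ER body genes, fell from 5.03 to 2.16, a log2 change of -0.91 (adjusted p = 0.022). JAL31 and JAL33 were also called lower. GLL22, JAL23 and JAL35 did not pass the test, with changes of -0.47, -0.47 and -1.05. JAL30 to JAL35 are close relatives, several in a tandem cluster, so reads may be divided among them in a way that cannot be checked here. In nrp1-1 nrp2-2 against Col-0 the 13 genes had a median of -0.53, and the interaction, the test of whether NRP loss acted differently in Col-0 and in gcn5-7, was called for none of them in limma without the block. With the block it was called for 6 of the 13 (1.11% of all genes), among them JAL34 (adjusted p = 0.0226), MEB1 (0.0226), GLL23 (0.0344), JAL30 (0.0379) and NAI2 (0.0499). ER bodies are found mostly in roots and hypocotyls, and in bulk seedlings fewer cells of a type and less RNA per cell cannot be told apart. The 14 root markers searched for, of which 3 reached a mean of 1 and 2 were at 0 in every library, summed to 99.5 to 240 in gcn5-7 and 54.5 to 97.1 in the triple mutant. Without PYK10 the sums were 23.5 to 32.6 and 29.3 to 48.8, higher in the triple mutant in 4 of 5 numbered pairs (exact permutation test, 2-sided p = 0.0317; the smallest p that 5 against 5 allows is 0.00794).

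**Figure D2:**
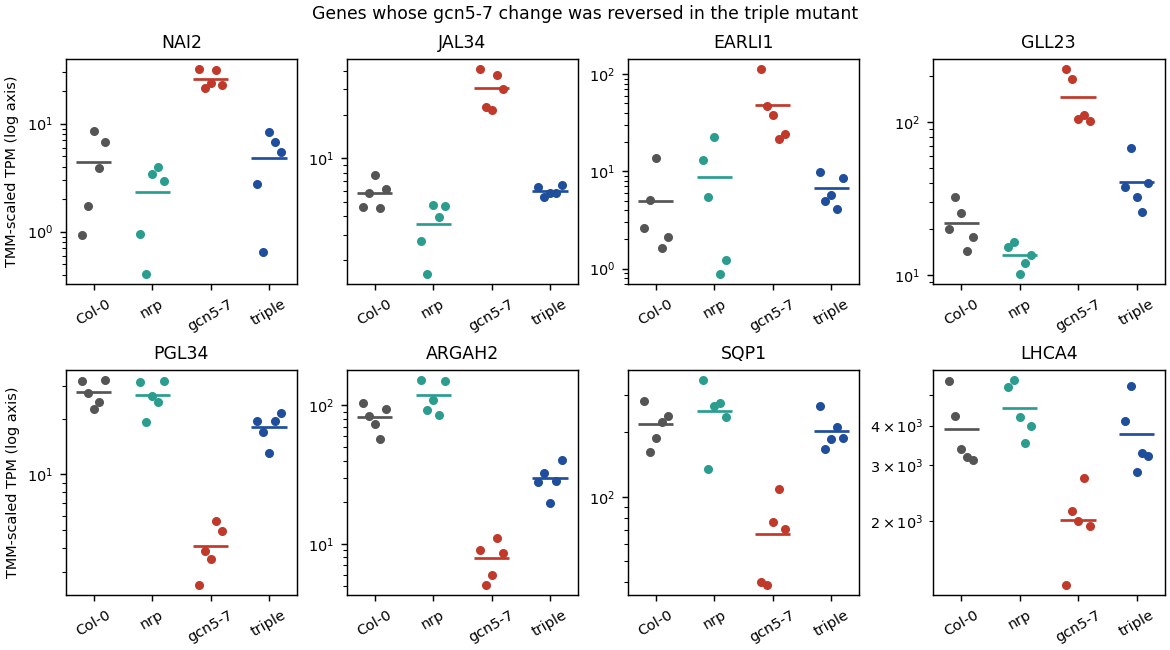
TMM-scaled TPM (y axis, log scale) of 8 reversed genes in each library of the 4 genotypes of experiment B (x axis; triple is gcn5-7 nrp1-1 nrp2-2, nrp is nrp1-1 nrp2-2). Points are libraries in order of replicate number and bars are group means. NAI2, JAL34, EARLI1 and GLL23 have their highest mean in gcn5-7 and PGL34, ARGAH2, SQP1 and LHCA4 their lowest. For each of the 8 no triple-mutant library overlaps gcn5-7, which was a condition of a rule that named all of them but LHCA4.

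Further named genes rose in gcn5-7 and fell in the triple mutant. EARLI1 (AT4G12480), a cell-wall lipid-transfer-like protein induced by cold and pathogens, had 112, 46.9, 38.1, 21.3 and 24.5 in gcn5-7 and 9.91, 4.99, 5.76, 4.15 and 8.59 in the triple mutant. The groups did not overlap, which a rule that named EARLI1 required, and gcn5-7 replicate 1 stood far above the rest. The fall was 2.49 ± 0.62 (adjusted p = 0.0351). NTM1 (AT4G01540), a membrane-tethered NAC factor, had 19.5, 9.73, 13.5, 10.3 and 16.2 against 1.6, 1.03, 8.46, 2.86 and 3.07, and replicate 3 was the triple-mutant library closest to gcn5-7. It fell by 1.92 ± 0.42 (adjusted p = 0.0167). MDHAR (AT3G09940), a monodehydroascorbate reductase that recycles ascorbate, fell from 23.0 ± 12.3 to 5.57 ± 1.55 (-1.79 ± 0.42, adjusted p = 0.0251). HCHIB, a basic chitinase, fell by 2.14 ± 0.49 (adjusted p = 0.0238), and the peroxidase gene Prx37 by 1.85 ± 0.46 (adjusted p = 0.0335), each with overlapping groups. GPT2, a plastid glucose-phosphate translocator induced by sugars, fell by 1.98 ± 0.53 (adjusted p = 0.0449), and its triple-mutant replicate 3, at 8.54, lay inside the gcn5-7 range of 6.79 to 28.9. MIR864 (AT1G19464), a microRNA gene read here through its precursor, fell from 13.1 ± 3.51 to 2.56 ± 2.3 (-2.24 ± 0.45, adjusted p = 0.0114); it lies within 500000 bases of NRP2, where DNA linked to the nrp2-2 allele cannot be told apart from the allele.

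Among 20 genes of sugar and energy starvation, 2 were called lower and 0 higher: DIN6 (AT3G47340), an asparagine synthetase, by 1.85 ± 0.47 (adjusted p = 0.0374), and BCAT-2 (AT1G10070), a branched-chain aminotransferase, by 1.43 ± 0.28 (adjusted p = 0.00946). The list's median was -0.17, and with the replicate block 2 were higher and 6 lower, where 13.6% and 11.8% of all genes were. Single members of other lists fell: GH3.3, which conjugates auxin, by 1.01 ± 0.27, RAD54, a DNA repair gene, by 0.77 ± 0.20, and RVE8, a clock factor, by 0.62 ± 0.14 (adjusted p = 0.0443, 0.0375 and 0.0251). Each was the 1 gene called of its list, of 21 auxin, 16 DNA damage and 14 clock genes. With the block 9 auxin genes were higher and 2 lower, 0 DNA damage genes higher and 5 lower, and 1 clock gene higher and 3 lower.

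Salicylic acid defence genes, which make, sense or respond to this hormone, were lower in the triple mutant without any single gene passing the test. All 29 tested had negative changes with a median of -0.92, and 0 were called, with 7 at an unadjusted p below 0.05. In gcn5-7 against Col-0 their median was 1.76. PR2, a secreted glucanase, had 509 in gcn5-7 and 78 in the triple mutant (-2.60, adjusted p = 0.141), and EDS1, a regulator upstream of salicylic acid, had 48.2 and 20.2 (-1.71, adjusted p = 0.136). SAG101, a partner of EDS1, had the smallest adjusted p of the list, 0.0925, at 14.8 and 5.15. With the replicate block, which called 11.8% of all genes lower, 13 of the 29 were called lower and 0 higher. WRKY70 and WRKY54, factors of the same pathway, had 162 and 29.4 in the triple mutant, 170 and 31.5 in gcn5-7, and 36.9 and 7.82 in Col-0. The genes named in this paragraph are examples and were not picked by the rule used to name genes.

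Camalexin, heat shock and jasmonate genes showed 0 calls each, with 3, 4 and 10 at an unadjusted p below 0.05. The 7 genes of camalexin synthesis, the main Arabidopsis phytoalexin, had a median of -0.84, and PAD3, its last enzyme, had 87.5 in gcn5-7 and 24.3 in the triple mutant (adjusted p = 0.169). The 15 heat shock genes had a median of -0.62 and the 28 jasmonate genes of -0.46. With the replicate block 5, 7 and 7 of them were called lower, against 11.8% of all genes, and 0 higher.

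Genes of the photosynthetic antenna and Rubisco moved the other way. All 26 tested had positive log2 changes in the triple mutant, with a median of 0.90, and 3 were called higher, against 2.08% of all genes, and 0 lower. With the replicate block 21 were higher, against 13.6% of all genes, and 0 lower. In gcn5-7 against Col-0 their median was -1.16. LHCA4 (AT3G47470), an antenna protein of photosystem I, had 1260, 2150, 2000, 2740 and 1930 in gcn5-7 and 4130, 5320, 2850, 3280 and 3200 in the triple mutant. Every triple-mutant library was above every gcn5-7 library, and LHCA4 rose by 0.90 ± 0.24 (adjusted p = 0.0436). LHCB4.3, an antenna protein of photosystem II, rose from 108 ± 34.5 to 230 ± 38.5 (1.14 ± 0.29, adjusted p = 0.0363), while Col-0 had 388 ± 139. RBCS2B, a Rubisco small subunit, rose from 4180 ± 1250 to 9010 ± 2550, a change of 1.13 ± 0.31 with an adjusted p that rounds to 0.05, just under the threshold, and did not pass with a pseudocount of 0.1 or 5. Its close copies may share reads with it. Summed over the list, gcn5-7 libraries held 39412 to 93371 and triple-mutant libraries 91651 to 212421, which overlapped (exact permutation test, 2-sided p = 0.0159). With quantile normalization the list's median was 0.20, and LHCA4 did not pass the test (0.17, adjusted p = 0.568). The upstream sequence of LHCA4 is shown because it carries both motifs: the G-box, 88 bases before the gene start, shares a base with the W-box core at 92 bases, and a further core lies at 138 bases.
LHCA4 chr3:17495034-17495283 minus strand: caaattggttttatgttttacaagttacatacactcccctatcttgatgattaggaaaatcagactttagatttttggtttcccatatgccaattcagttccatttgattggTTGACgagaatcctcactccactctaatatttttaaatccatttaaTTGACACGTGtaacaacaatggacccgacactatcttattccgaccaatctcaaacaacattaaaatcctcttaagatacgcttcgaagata

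GUN4, which helps to make chlorophyll, was the 1 gene called among 16 of chlorophyll synthesis (15 of them with a positive change, median 0.46): it rose by 0.86 ± 0.22 (adjusted p = 0.0423), and 7 genes were higher and 1 lower with the block. Transcripts of the chloroplast genome held 0.0966 to 0.136% of the signal in gcn5-7 and 0.123 to 0.552% in the triple mutant (exact permutation test, 2-sided p = 0.0317). Of 96 chloroplast genes tested, 2 were called higher and 0 lower, with a median of 0.50, and 15 and 0 with the block. The values of triple-mutant replicates 1 to 5 were 0.3, 0.552, 0.212, 0.145 and 0.123%, and replicate 5 lay inside the gcn5-7 range.

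Named genes with a symbol also rose after falling in gcn5-7. PGL34 (AT3G58010), a plastoglobulin of the lipid droplets of chloroplasts, had 2.55, 3.87, 3.5, 5.61 and 4.97 in gcn5-7 and 19.5, 17, 13.1, 19.4 and 21.5 in the triple mutant. The groups were far apart, Col-0 spanned 22.5 to 32.3, and the rise was 1.92 ± 0.19 (adjusted p = 1.19e-05). ARGAH2 (AT4G08870), an arginase, had 9.08, 5.08, 6.01, 11 and 8.57 against 28.1, 32.8, 19.8, 28.6 and 40.3. It rose by 1.80 ± 0.23 (adjusted p = 0.000323) and was still below Col-0, at 82.3 ± 18.2 (-1.44 against Col-0, adjusted p = 0.00127). SQP1 (AT5G24150), a squalene epoxidase-like enzyme, had 40.1, 38.9, 76.4, 109 and 70.6 against 265, 167, 187, 211 and 188, and rose by 1.68 ± 0.28 (adjusted p = 0.00323). Its triple-mutant mean of 204 ± 37.7 stood beside 219 ± 45.6 in Col-0.

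PPT2, a plastid phosphoenolpyruvate translocator, rose from 11.5 ± 2.70 to 34.3 ± 8.41 (1.48 ± 0.22, adjusted p = 0.00155) and remained below the 81.6 ± 17.3 of Col-0 (adjusted p = 0.00294). MAP1B, a methionine aminopeptidase, rose by 1.46 ± 0.27 (adjusted p = 0.00733), and the carbonic anhydrase gene ACA1 by 1.79 ± 0.39 (adjusted p = 0.0177), the latter with overlapping groups. TRY, a small MYB repressor of trichome fate, had 1.46, 1.66, 4.3, 8.55 and 8.34 in gcn5-7 and 10.8, 15.4, 9.45, 17.5 and 22.6 in the triple mutant, a rise of 1.63 ± 0.35 (adjusted p = 0.0166). Its groups did not overlap, which a rule that named it required. It was the 1 of 12 guard cell and trichome genes called. BRS1, a secreted carboxypeptidase of brassinosteroid signalling, rose by 1.37 ± 0.33 (adjusted p = 0.0315), and TAR2, an enzyme of auxin synthesis, by 1.36 ± 0.21 (adjusted p = 0.00269). RL5, a RADIALIS-like MYB, NHL12, an NDR1/HIN1-like protein, and SAUR68, a small auxin-up RNA, rose by 1.64 ± 0.40, 1.54 ± 0.35 and 1.49 ± 0.34 (adjusted p = 0.0328, 0.0198 and 0.0212), each with overlapping groups. RL5 lies within 500000 bases of NRP2.

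TGG1 and TGG2, neighbouring myrosinase genes whose enzymes break down glucosinolates, were the 2 called among 19 glucosinolate genes, both higher. TGG2 had 173, 267, 179, 175 and 170 in gcn5-7 and 411, 608, 379, 437 and 465 in the triple mutant, a rise of 1.25 ± 0.20 (adjusted p = 0.00236) without overlap. TGG1 rose from 683 ± 49.1 to 1250 ± 164 (0.86 ± 0.23, adjusted p = 0.043), and did not pass at equal sums (adjusted p = 0.278). The list's median was 0.26, or -0.02 at equal sums, and 4 of the 19 were higher and 0 lower with the block. Myrosinases of this kind are made in guard cells and idioblasts beside the phloem. The 12 guard cell and trichome genes summed to 30.8 to 49.3 in gcn5-7 and 43.2 to 67.1 in the triple mutant (exact permutation test, 2-sided p = 0.0476). That sum holds TRY, which itself went from 4.86 ± 3.46 to 15.1 ± 5.29. Over the 12 genes the median change was 0.20, with 8 positive, 4 negative and 1 at an unadjusted p below 0.05. The part of such cells in the result was not tested.

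Growth, wax and flowering lists held few calls. None of 27 expansin, xyloglucan transferase and related growth genes was called in limma, with a median of 0.46 and 10 at an unadjusted p below 0.05. With the block 9 were higher and 3 lower, where 13.6% and 11.8% of all genes were. CER2, an enzyme of wax synthesis, rose by 0.75 ± 0.19 (adjusted p = 0.0345) as the 1 of 18 wax genes called, and did not pass at equal sums (adjusted p = 0.212). With the block 6 wax genes were higher and 0 lower. FT (AT1G65480), the florigen, had 0.416, 0.205, 1.1, 1.09 and 0.254 in gcn5-7 and 1.18, 1.3, 2.13, 2.72 and 2.21 in the triple mutant. It was the 1 of 19 flowering-time genes called, with a rise of 0.86 ± 0.23 (adjusted p = 0.047), and the groups were separated by the narrow gap between 1.1 and 1.18. With the block 6 of the 19 were higher and 1 lower. At equal sums no flowering-time gene was called, and FT had an adjusted p of 0.105. None of the 6 genes of the FLC clade of floral repressors was called, with a median of -0.45 and 3 at an unadjusted p below 0.05, and with the block 1 was lower.

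**Figure D3:**
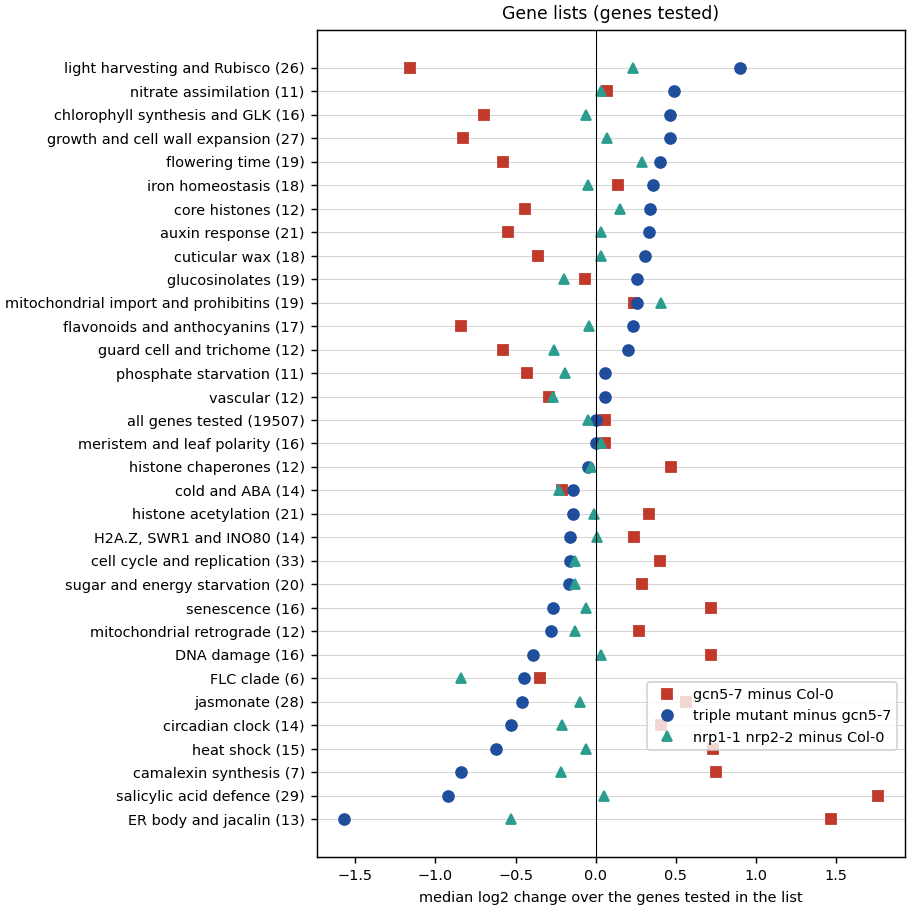
Median log2 change (x axis) over the genes tested of each list with at least 5 such genes (y axis; number tested in brackets), for gcn5-7 minus Col-0 (squares), the triple mutant minus gcn5-7 (circles) and nrp1-1 nrp2-2 minus Col-0 (triangles). The first and second share the gcn5-7 libraries; ER body, salicylic acid and camalexin genes have the lowest circles and the photosynthesis list, at 0.90, the highest.

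None of 12 histone chaperone genes other than the targets, 14 genes of H2A.Z, SWR1 and INO80 or 21 histone acetylation genes was called, with medians of -0.05, -0.16 and -0.14 and 1, 3 and 4 at an unadjusted p below 0.05. NAP1;1, NAP1;2 and NAP1;3, the relatives of the NRP genes, had log2 changes of 0.00, -0.10 and 0.03. Over the 3 lists the changes ran from -1.15 for SPT6L (adjusted p = 0.233) to 0.56 for ARP6 (adjusted p = 0.117), both named after their values were seen. With the block 3, 4 and 5 genes of these lists were called lower, where 11.8% of all genes were, and 0, 1 and 1 higher. The lists of seed and of pollen genes had no member tested.

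The loss of NRP1 and NRP2 in Col-0 was set beside the loss in gcn5-7. In nrp1-1 nrp2-2 against Col-0, which shares no library with the triple mutant against gcn5-7, 76 genes (0.39%) were called, and 36 of them were called here too, all in the same direction. These 36 are 47.4% of the 76 and 5.74% of the 627, and they include the mutated genes NRP1 and NRP2 and the overlapping CYP98A9. Across 19507 genes the log2 changes of both comparisons correlated with Pearson's r of 0.40 and Spearman's rho of 0.41. Genes are not independent replicates. The changes of both comparisons also moved with exon length, with Spearman's rho of -0.27 in each, and the part of length in the correlation was not tested.

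Some nuclear genes for mitochondrial proteins rose. PHB1 and PHB4, prohibitins that scaffold the inner mitochondrial membrane, and PHB6 were the 3 called among 19 import and prohibitin genes, with 0 lower and a median of 0.26, or -0.02 at equal sums. PHB1 (AT4G28510) had 26.7, 27, 18.1, 20.7 and 21.8 in gcn5-7 and 48.6, 41.6, 38.5, 33.3 and 39.2 in the triple mutant. It rose by 0.80 ± 0.16 (adjusted p = 0.0109) without overlap, after a rise of 0.84 in gcn5-7 against Col-0 (adjusted p = 0.00122). PHB4 (AT3G27280) rose from 19.1 ± 3.08 to 40.1 ± 10.6 (1.01 ± 0.27, adjusted p = 0.0445), and PHB6 from 37.9 ± 6.68 to 62.8 ± 13.0 (0.71 ± 0.19, adjusted p = 0.043), both without overlap. In nrp1-1 nrp2-2 against Col-0 the changes of PHB1, PHB4 and PHB6 were 1.34, 1.58 and 0.76 (adjusted p = 0.000151, 0.00841 and 0.107), so PHB6 did not pass there. At equal sums PHB1 and PHB6 did not pass the test (adjusted p = 0.172 and 0.181). With the block 4 genes of the list were higher and 1 lower.

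PHB4 carries a site II element, a motif known from many genes for mitochondrial proteins, 87 bases before its start. The element was present in 15.5% of the 71 promoters of genes not called in gcn5-7 and higher in the triple mutant and in 16.4% of all 19390, so its share among these genes was near that of all genes.
PHB4 chr3:10076559-10076808 plus strand: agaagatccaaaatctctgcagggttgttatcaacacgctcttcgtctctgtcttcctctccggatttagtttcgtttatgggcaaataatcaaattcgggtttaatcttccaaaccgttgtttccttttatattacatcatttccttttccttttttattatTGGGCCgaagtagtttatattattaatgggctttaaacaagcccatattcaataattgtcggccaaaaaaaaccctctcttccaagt

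TOM7-2 (AT1G64220), a subunit of the outer-membrane import pore, had 0.663, 3.27, 2.82, 3.46 and 3.24 in gcn5-7 and 9.55, 11.5, 9.65, 13.6 and 23.5 in the triple mutant. Every triple-mutant library was above every gcn5-7 library, which the rule that named TOM7-2 required. The gene rose by 1.99 ± 0.43 (adjusted p = 0.0166), beside 2.32 in nrp1-1 nrp2-2 against Col-0 (adjusted p = 0.0139). AR192, a GrpE-type co-chaperone, and GR-RBP3, a glycine-rich RNA-binding protein, rose with PHB1 in both steps, by 0.70 ± 0.17 and 0.77 ± 0.17 here (adjusted p = 0.0331 and 0.0195), and neither passed at equal sums (0.321 and 0.173). These 3 come from the 10 that rose in both. They are those with a symbol and a mean of at least 5 in Col-0, gcn5-7 or the triple mutant. The interaction was called for none of them, for PHB4, PHB6 or for TOM7-2, with adjusted p from 0.615 to 0.986, nor with the block (0.115 to 0.891), and a p that misses the threshold does not show that the effects were equal.

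Transcripts of the mitochondrial genome were lower. They held 0.0574, 0.0486, 0.027, 0.036 and 0.0302% of the signal in gcn5-7 and 0.0291, 0.0267, 0.0123, 0.00878 and 0.00764% in the triple mutant. The triple mutant was lower in all 5 numbered pairs, and the groups overlapped only in that triple-mutant replicate 1 lay above gcn5-7 replicate 3 (exact permutation test, 2-sided p = 0.0159). In nrp1-1 nrp2-2 the share was 0.00529 to 0.0256%, against 0.0314 to 0.0638% in Col-0 (exact permutation test, 2-sided p = 0.00794). Among the 152 mitochondrial genes, 21 were tested, and 5 were called lower and 0 higher, with a median of -0.72. The block gave 8 lower and 1 higher. ATMG09450, which carries no gene symbol and was chosen after its values were seen, had 167, 179, 78.1, 112 and 92 in gcn5-7 and 27.7, 28.1, 15, 17 and 23 in the triple mutant, a fall of 2.42 ± 0.38 (adjusted p = 0.00277). ATMG09730, likewise chosen, fell by 2.27 ± 0.37 (adjusted p = 0.0032). A near-identical copy of much of the mitochondrial genome lies in chromosome 2, and how reads shared with it were counted is not given in the sources used here.

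**Figure D4:**
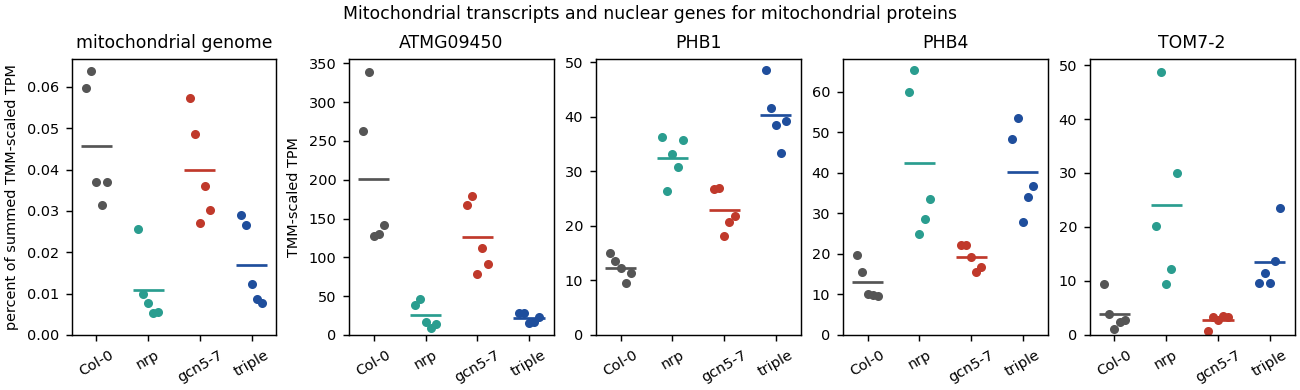
Share of the summed TMM-scaled TPM from the mitochondrial genome (left, percent) and TMM-scaled TPM of the mitochondrial gene ATMG09450 and of the nuclear genes PHB1, PHB4 and TOM7-2 (y axes from 0) in each library of the 4 genotypes of experiment B (x axis; triple is gcn5-7 nrp1-1 nrp2-2, nrp is nrp1-1 nrp2-2). Points are libraries and bars group means; both genotypes with nrp alleles are low in the mitochondrial panels and high for the nuclear genes.

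Further genes changed in the triple mutant against gcn5-7, with their values in nrp1-1 nrp2-2 against Col-0 beside them. OXS3 (AT5G56550), a stress tolerance protein of chromatin, had 4.44, 3.36, 8.34, 2.93 and 3.71 in gcn5-7 and 9.29, 22.3, 43.7, 24.5 and 45.4 in the triple mutant, a rise of 2.32 ± 0.45 (adjusted p = 0.0087). In nrp1-1 nrp2-2 against Col-0 its change was 1.78, which did not pass the test (adjusted p = 0.117). AT5G21940, chosen after its values were seen, rose from 36.1 ± 15 to 149 ± 46.3 (2.05 ± 0.33, adjusted p = 0.00285) and had 146 ± 39.8 in nrp1-1 nrp2-2 against 32.4 ± 15.3 in Col-0. AT3G59940, the F-box gene KMD4, and AT3G09275, a noncoding RNA annotated within the same stretch of chromosome 3, rose by 1.98 ± 0.38 and 2.09 ± 0.38 (adjusted p = 0.00842 and 0.0072), beside 1.71 and 1.87 in nrp1-1 nrp2-2 against Col-0, of which only AT3G09275 passed (adjusted p = 0.0521 and 0.0282). They were chosen after their values were seen and overlap almost wholly, so that without strand their reads cannot be told apart. BHLH38, an iron-deficiency factor, rose by 1.22 ± 0.24 (adjusted p = 0.0113) from 0.456 to 2.4, the 1 of 18 iron genes called, with 5 higher and 2 lower with the block. In nrp1-1 nrp2-2 against Col-0 its change of 0.63 did not pass (adjusted p = 0.603). MRD1 (AT1G53480) rose by 2.11 ± 0.46 (adjusted p = 0.0168), from at most 1.46 in gcn5-7 to 15, 10.1, 2.8, 1.82 and 10.3, beside a change of 0.81 that did not pass in nrp1-1 nrp2-2 against Col-0 (adjusted p = 0.983). AT4G13572, chosen after its values were seen, fell by 1.74 ± 0.38 (adjusted p = 0.0177), beside -1.38 in nrp1-1 nrp2-2 against Col-0, which did not pass (adjusted p = 0.205).

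**Figure D5:**
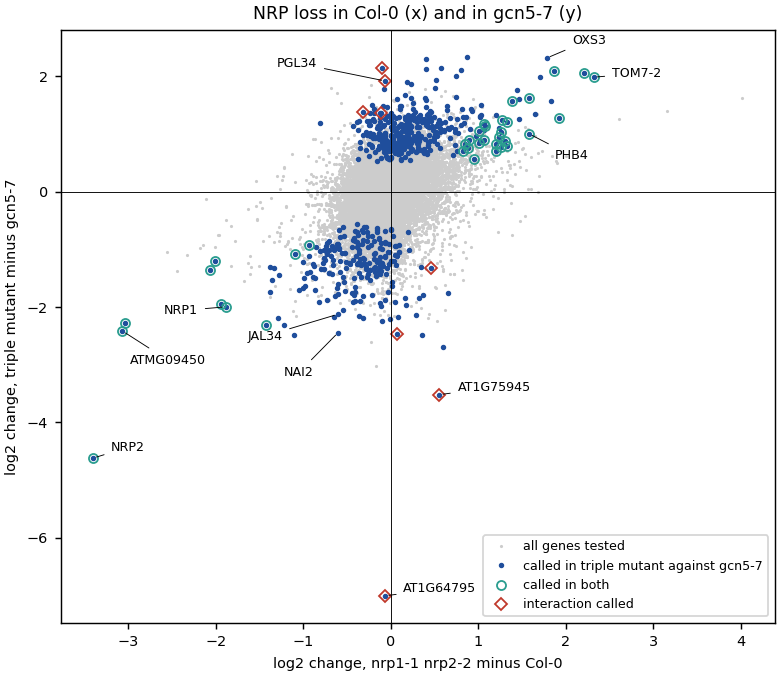
Log2 change in the triple mutant minus gcn5-7 (y axis) against that in nrp1-1 nrp2-2 minus Col-0 (x axis) for 19507 genes; no library enters both axes. Filled points are the 627 genes called on the y axis, circles the 36 called on both and diamonds the 8 called for the interaction; all 36 genes called on both axes lie in the quadrants of equal sign.

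The interaction called 8 genes (0.041%), with 1406 (7.21%) at an unadjusted p below 0.05 and 217 called with the replicate block (1.11%). Among the 65 named genes called in the triple mutant against gcn5-7, 26 were called for the interaction with the block, such as TGG2 (adjusted p = 0.00883), PPT2 (0.00434), TAR2 (0.00873), ARGAH2 (0.0292) and EARLI1 (0.0391). Some named genes were chosen by the interaction call itself, and others for large changes or reversals in the same libraries. The count of 26 therefore carries no test. Of the 8 called without the block, 4 fell and 4 rose in the triple mutant relative to gcn5-7 (0.0205% of genes each). The 4 that fell had means of at most 2.02 in Col-0 and nrp1-1 nrp2-2. AT1G64795 (chromosome 1, 24082579 to 24082848), chosen after its values were seen, had 131, 263, 189, 98.6 and 81.9 in gcn5-7 and 0, 0, 0.544, 0 and 0 in the triple mutant. It was at most 1.18 in Col-0 and 1.54 in nrp1-1 nrp2-2 (interaction log2 -6.95, adjusted p = 4.58e-08). In experiment A it had 15.8 to 64.4 in gcn5-7 and 7.37 to 12.5 in gcn5-7 arp6-1. AT1G75945, AT2G11405 and AT2G41780, also chosen after their values were seen, had 23.4 ± 10.7, 11.2 ± 5.96 and 10.8 ± 1.63 in gcn5-7 and 1.82 ± 3.17, 1.14 ± 0.857 and 3.75 ± 1.05 in the triple mutant (interaction adjusted p = 0.013, 0.013 and 0.0222). AT1G75945 starts at 28515245 on chromosome 1, within 500000 bases of NRP1, where DNA linked to the nrp1-1 allele cannot be told apart from the allele.

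The 4 that rose had their lowest mean of the genotypes of experiment B in gcn5-7. For PGL34 the interaction was 1.98 (adjusted p = 0.00447), and for FUC1 (AT2G28100), an alpha-fucosidase of the cell wall, it was 1.70 (adjusted p = 0.0159). FUC1 had 2.35, 1.58, 1.76, 2.86 and 1.63 in gcn5-7 and 5.75, 7.38, 5.25, 8.33 and 7.89 in the triple mutant, while Col-0 had 11.1 ± 2.31 and nrp1-1 nrp2-2 had 8.74 ± 1.95. AT1G68260, the acyl-lipid thioesterase gene ALT3, had 9.24 ± 1.23 in gcn5-7 and 25.4 ± 3.84 in the triple mutant (interaction 1.48, adjusted p = 0.013). AT2G40960 had 0.211 ± 0.0916 and 4.43 ± 1.02, and 6.40 ± 1.46 in Col-0 (interaction 2.25, adjusted p = 0.00797). Both were chosen after their values were seen. In experiment A both were also low in arp6-1. There AT1G68260 had 3.63 to 6.12 beside 31.3 and 23.2 in Col-0, and AT2G40960 had 0 to 0.204 beside 1.29 and 6.86.

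Loss of ARP6 in gcn5-7 was set beside loss of the NRP chaperones, from experiment A, whose values were normalized separately. Some genes also differed widely in level between the experiments. GUN4 had 0.262 to 1.82 in A and 147 to 647 in B, and AT3G09275 had 0 in every library of A and 8.15 to 108 in B. CYP98A9 was at most 0.315 in A, where NRP1 had 33.9 to 133. Whether reads were assigned to genes alike in A and B was not tested. In A, replicate 1 also stood apart for some genes in 3 genotypes but not in gcn5-7 arp6-1. NRP1, for example, had 54 and 133 in Col-0, 37.8, 106 and 121 in gcn5-7 and 33.9, 107 and 102 in arp6-1. In gcn5-7 arp6-1 it had 92, 79 and 89.4. The fit of A that gave the values below held no term for replicate 1. In gcn5-7 arp6-1 against gcn5-7, 2504 of 18322 genes were called (13.7%; 9.79% higher and 3.88% lower). Of the 180 genes reversed downwards by NRP loss 148 were tested in A, and 39 of them (26.4%) were called lower there and 4 higher, with a median of -0.54. Of the 324 reversed upwards 293 were tested, with 49 (16.7%) higher and 2 lower and a median of 0.47. Over all 17451 genes tested in both experiments, 9.31% were higher and 3.83% lower in gcn5-7 arp6-1, with a median of 0.13. Of the 71 genes higher in the triple mutant and not called in gcn5-7, 62 were tested in A, and 1 was called higher and 14 lower, with a median of -0.73. Of the 42 lower in the triple mutant and not called in gcn5-7, 30 were tested in A, and 2 were called higher and 9 (30%) lower, with a median of -0.55. EARLI1 and TGG2 changed by -3.56 and 2.46 with loss of ARP6 (adjusted p = 0.0115 and 0.00715), beside -2.49 and 1.25 with loss of the NRP genes. NAI2 and TOM7-2 had log2 differences of 0.93 and -2.32 there, which did not pass the test (adjusted p = 0.212 and 0.0569), beside -2.44 and 1.99 here. The mitochondrial ATMG09450 and ATMG09730 were lower with loss of ARP6 too, by -3.38 and -3.41 (adjusted p = 0.0155 and 0.0143). PHB4 and GR-RBP3, which rose here, changed by -1.78 and -1.47 there (adjusted p = 0.00482 and 0.019). PHB1, PHB6 and AR192 did not pass there, at -0.45, -0.53 and -0.76. Across the 17451 genes the changes in the 2 comparisons correlated with Pearson's r of -0.08 and Spearman's rho of -0.16.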

How the data were processed

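Libraries were made from whole-seedling total RNA, and the authors deposited 2 tables, for experiments A and B. How RNA was selected for the libraries, which bears on the organelle shares, was not examined here. Their values are a signal, TMM-scaled TPM, per the file headers. Reads were trimmed with fastp 0.23.4 and aligned with HISAT2 2.2.1, with the TAIR10 build named, per the submitters' processing notes. The read counter, strand setting, annotation and filters were not found in the labels or headers used here.

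From the deposited signal, log2(value + 1) was fitted in limma 3.58.1 (R 4.3.3) with trend and robust variance over all 20 libraries of B, for genes with a mean of at least 1, and p-values were adjusted by Benjamini-Hochberg with a threshold of 0.05. The pseudocount understates changes of low genes. Whole reads were recovered from the values to give depth, and 99.4 to 99.6% of values under 20 reads were within 0.05 of a whole number. Single summed values were compared by exact permutation. Groups came from the labels. Gene names, promoters and coordinates came from RefSeq (TAIR10.1). The fit was tested on simulated data.

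Genes with a symbol were named by rule: the targeted genes, the 12 highest and 12 lowest called changes without overlap where the higher genotype averaged 5 or more, the 10 and 10 largest reversed and 5 and 5 largest same-direction changes, the interaction genes, and called members of the lists (the 4 of smallest adjusted p where 3 or more were called). The reversed and same-direction genes also needed a mean of at least 5 in Col-0, gcn5-7 or the triple mutant. Other genes are said to be chosen after their values were seen, or were named as examples outside this rule. The examples are PR2, EDS1, SAG101, WRKY70, WRKY54, PAD3 and the NAP1 genes. The members and lists were chosen with earlier results of these data known. Replicate numbers were taken as pairs because same-numbered gcn5-7 and triple-mutant libraries deviated together from their group means (r = 0.12, 0.54, 0.34, 0.54 and 0.40, each above 0.1), although only replicates 2 and 4 correlated best with their own number. Alternatives were the replicate block, pseudocounts, filters, scalings, a length correction, subsets of replicates and leaving out each library.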

Additional observations from a re-analysis of the deposited data

Results flagged for a closer look

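Among the 66 named genes, 14 of 132 groups of 5 libraries held a library far from the other 4, where chance alone marks about 1 in 20 groups. In the triple mutant these were replicate 3 for AT1G64795 (0.544), GPT2 (8.54) and NTM1 (8.46), and replicate 5 for AT1G75945 (7.45). In gcn5-7, replicate 1 stood apart for EARLI1 (112), MAP1B (1.45) and TOM7-2 (0.663), and replicate 2 for GCN5 (6.78), TGG2 (267) and AT1G13609 (14.4). Replicate 3 stood apart for OXS3 (8.34), and replicate 5 for Prx37 (24.7), MDHAR (44.5) and RAD54 (3.14). The sum of the root markers was highest in gcn5-7 replicate 4, at 240. All values are TMM-scaled TPM.

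For 8 genes the effect of NRP loss differed between Col-0 and gcn5-7 in limma's interaction test. The log2 differences, triple mutant minus gcn5-7 less nrp1-1 nrp2-2 minus Col-0, were -6.95 for AT1G64795, -4.08 for AT1G75945, -2.54 for AT2G11405 and -1.79 for AT2G41780. They were 1.48 for AT1G68260, 1.70 for FUC1, 1.98 for PGL34 and 2.25 for AT2G40960.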

How the results depend on the processing

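The counts of called genes, of reversed genes and of interaction calls were 627, 504 and 8. With the replicate block as pairing they were 4953, 4277 and 217, and with block and length correction, added after seeing the data, 5004, 4133 and 456. Of the 66 named genes the 65 called, all but GCN5, stayed called in the same direction with the block, and beyond the counts and interaction values given with the results it changed no other call. Quantile normalization gave 1246, 1034 and 14, a mean of at least 5 gave 378, 312 and 5, and length correction gave 17 interaction calls, as no filter gave 25. Replicates 1 and 2 alone gave 215, 203 and 2, and replicates 3 to 5 alone 139, 89 and 2. Leaving out 1 library gave 182 to 1669 called genes, 147 to 1429 reversed and 6 to 18 interactions. Genes chosen in experiment A and called the other way numbered 27 to 204 of those higher and 39 to 184 of those lower. The adjusted p in A left 9 and 12 such genes, of which 4 and 4 were called. With a term for replicate 1 in the fit of A, 775 and 806 genes were chosen, of which 78 and 129 were called the other way.

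No named gene changed direction under any alternative run. Of the 65, 11 lost their call at equal sums, 13 with only the 2 groups fitted, 10 with a pseudocount of 0.1, 41 with replicates 1 and 2 and 35 with replicates 3 to 5. Without triple-mutant replicate 5 or gcn5-7 replicate 1, 27 lost it, and without triple-mutant replicate 3, 0. The cause was not tested. Depth, 10.5 M reads at the least, limits mainly genes of low level.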
